A study of Mus musculus with 48 samples.

Results

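The nuclear genes for the proteins of the mitochondrial ribosome were followed in the livers of mice with and without the clock protein BMAL1. Genes were taken from the deposited count table by name, as every row whose symbol begins with Mrpl or Mrps and a number and whose mean over the 48 libraries is at least 10 counts. The name fits 80 of its 23732 genes, and 76 meet the minimum. The 4 rows under it are Mrpl53, with a mean of 3.38 counts, and 3 pseudogenes. Just inside it lies the pseudogene Mrpl23-ps1, with a mean of 11.06 counts. The 76 members comprise 48 proteins of the large subunit, 26 of the small subunit, this pseudogene and Mrps36. Mrps36 keeps the family's name, but its protein is now known as a part of the alpha-ketoglutarate dehydrogenase complex. Mrps18a and Mrps30 are counted with the large subunit, where their proteins sit. All 76 passed the filter on low counts.

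Mitochondria keep their own ribosome, which translates the few messages of the mitochondrial genome, all of them for subunits of the respiratory chain and ATP synthase. Its RNA comes from mitochondrial DNA, and every one of its proteins is encoded in the nucleus, made in the cytosol and imported. Some of the proteins have relatives in the bacterial ribosome, and others are found in mitochondria alone. Liver is rich in mitochondria, and its use of fuels turns over daily with feeding. BMAL1 is the clock activator that, with CLOCK, binds E-box sequences in DNA.

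The mice were C57BL/6 males aged 4 to 6 months. The knockout group, written KO, was Bmal1f/f-EsrCre, which is homozygous for floxed Bmal1 and carries a Cre recombinase that acts in all tissues once tamoxifen is given. The control group, written WT as in the labels, was the Cre-negative Bmal1f/f littermates, so both groups carried the floxed alleles. Tamoxifen was given to both by gavage, 5 mg daily on 5 days. After 7 days they were put in constant darkness for 36 h, and 4 mice of each genotype were then killed in the dark at each of 6 times 4 h apart. The 12 groups of 4 are named by genotype and time (ZT0, ZT4, ZT8, ZT12, ZT16 and ZT20). All KO mice and no WT mice carried Cre, so its own effect cannot be told apart from the loss of BMAL1. The labels' cage letters form 3 sets, 1 for ZT4 with ZT8, 1 for ZT12 with ZT16 and 1 for ZT20 with ZT0. Time and cage set cannot be told apart, while each set held both genotypes.

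Levels are given as CPM, read counts scaled to library size with TMM factors. Each library held 33562272 to 34035644 counts. Counts of Arntl, the gene of BMAL1, lay between 4.6 and 25.6 CPM in the 24 KO mice, with group means of 10.1 to 17.9, and between 0.978 and 47.8 CPM in the 24 WT mice, with group means of 1.35 at ZT8 to 43.9 at ZT20. The labels do not say which stretch of the gene is deleted, and reads from the rest of it can remain. The 8 hepatocyte markers tested summed to 32592 to 47901 CPM in every mouse, against 581 to 1677 for 7 markers of Kupffer cells and macrophages and less than that for the other cell types looked at. In whole tissue fewer cells of a type and less RNA per cell cannot be told apart. KO mouse 21 of ZT12 stood apart from the other 47 libraries: its trend of expression with transcript length, the slope of log2 CPM per doubling of length, was -0.321, against -0.0723 to 0.135 in the others. Members are short, with a median transcript of 2172 bases against 4227 over all genes tested, and this mouse had the highest value of all 48 in 58 of the 76. Results that use the KO mice of ZT12 are therefore given with and without it.

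Relative to its own length, the most abundant message was Mrpl12, with 69.7 CPM per kb. Its protein, bL12m, forms the stalk of the large subunit that recruits the translation factors. Mrpl27, whose bacterial relative lies near the site of peptide bond formation, stood at 51.5 CPM per kb and Mrpl34 at 43.4. The median over the 75 members with a length was 12.6 CPM per kb, and 39 of them lay within 2-fold of it. The lowest were Mrpl23-ps1 at 0.564, Mrps25 at 1.97 and Mrpl23 at 2.19 CPM per kb. Message levels relative to length thus differed widely between members. Transcript lengths are unions of exons from a later annotation, so these levels are approximate.

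The promoters of the members were searched for 6 short motifs that are known from genes of this kind or from the clock. RefSeq promoters of 300 bases on GRCm38.p6, from 250 before to 50 after each start, were matched for 66 of the 76 members. On either strand, ACTTCCG, bound by ETS factors such as GABP, was present in 17 of 66 members and in 6.42% of all promoters. The NRF1 motif, with 1 free base, was present in 12 and in 4.6% of all promoters, and its strict form, which is a case of it, in 3 and 0.971%. The YY1 motif was present in 5 and 0.852%. The E-box CACGTG, the site of CLOCK and BMAL1, was present in 5 (Mrpl2, Mrpl20, Mrpl36, Mrpl37 and Mrps18c) and in 7.15% of all promoters, and TAGGTCA, an element bound by ROR and REV-ERB, in 0 and 2.61%. Shares over members are per gene and those over all promoters per promoter, and a match is a description of the letters and no proof of binding.

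The promoters of 4 members the results turn on are shown with these matches in capitals. Positions are those of the first base of a match. Mrpl12 holds the NRF1 letters 81 bases before the start and Mrpl36 the E-box 43 bases before it. Mrps27 holds the ETS letters 49 bases before the start and the YY1 letters just after it. In Mrps9 the NRF1 letters begin 5 bases before the start and run across it. They are RefSeq sequences on GRCm38.p6, given 5′ to 3′ on the plus strand, which is the strand of all 4 genes: Mrpl12 at chr11:120484387-120484686, Mrps27 at chr13:99344536-99344835, Mrps9 at chr1:42850983-42851282 and Mrpl36 at chr13:73330759-73331058.
Mrpl12: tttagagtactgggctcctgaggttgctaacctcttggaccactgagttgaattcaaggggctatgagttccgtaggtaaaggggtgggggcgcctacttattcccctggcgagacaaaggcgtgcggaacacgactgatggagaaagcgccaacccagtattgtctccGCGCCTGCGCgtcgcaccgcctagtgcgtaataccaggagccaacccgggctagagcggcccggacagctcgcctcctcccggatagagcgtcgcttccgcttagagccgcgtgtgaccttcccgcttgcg
Mrps27: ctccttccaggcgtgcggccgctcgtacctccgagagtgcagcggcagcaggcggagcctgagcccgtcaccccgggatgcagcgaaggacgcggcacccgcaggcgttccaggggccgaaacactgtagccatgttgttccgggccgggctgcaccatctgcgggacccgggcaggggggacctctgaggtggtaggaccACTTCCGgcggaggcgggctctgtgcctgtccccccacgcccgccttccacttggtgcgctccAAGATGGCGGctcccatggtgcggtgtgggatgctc
Mrps9: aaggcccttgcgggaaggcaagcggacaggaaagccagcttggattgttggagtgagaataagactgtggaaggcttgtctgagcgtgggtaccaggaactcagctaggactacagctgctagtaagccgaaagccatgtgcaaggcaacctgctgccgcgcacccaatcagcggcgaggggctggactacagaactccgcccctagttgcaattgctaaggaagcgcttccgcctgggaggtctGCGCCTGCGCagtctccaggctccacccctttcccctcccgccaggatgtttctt
Mrpl36: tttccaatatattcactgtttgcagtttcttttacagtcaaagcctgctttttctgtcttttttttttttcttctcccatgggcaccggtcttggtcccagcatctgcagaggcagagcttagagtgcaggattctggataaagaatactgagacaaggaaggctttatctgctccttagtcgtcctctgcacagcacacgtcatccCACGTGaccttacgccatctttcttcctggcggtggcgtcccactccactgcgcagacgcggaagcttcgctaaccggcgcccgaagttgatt

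In WT liver the family moved with the time of day and by little. The members were lowest at ZT0, the start of the subjective day, and highest around ZT12, where the subjective night begins: 67 of 76 had their lowest group mean at ZT0, 33 had their highest at ZT12 and 25 at ZT16. A 24 h wave was called (edgeR quasi-likelihood test, adjusted p under 0.05) in 52 of 76 members, while 48.1% of all genes tested passed. Of these 52 waves 29 had their fitted peak between ZT8 and ZT12 and 19 between ZT12 and ZT16, and over all called genes these windows held 16.5% and 17.6%. This timing is not particular to the family, as the 2 families given at the end peaked mostly in the same windows. The median amplitude, from the mean to the peak, was 0.15 on the log2 scale, against 0.18 over all genes, and called members changed by 1.16-fold to 1.63-fold from trough to peak. Without KO mouse 21 of ZT12, 59 were called (51.5% of all genes), the 52 among them. By subunit, 29 of 48 large-subunit members and 22 of 26 small-subunit members were called. Their median amplitudes were 0.14 and 0.18, and no test of the difference between subunits was made.

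**Figure D1:**
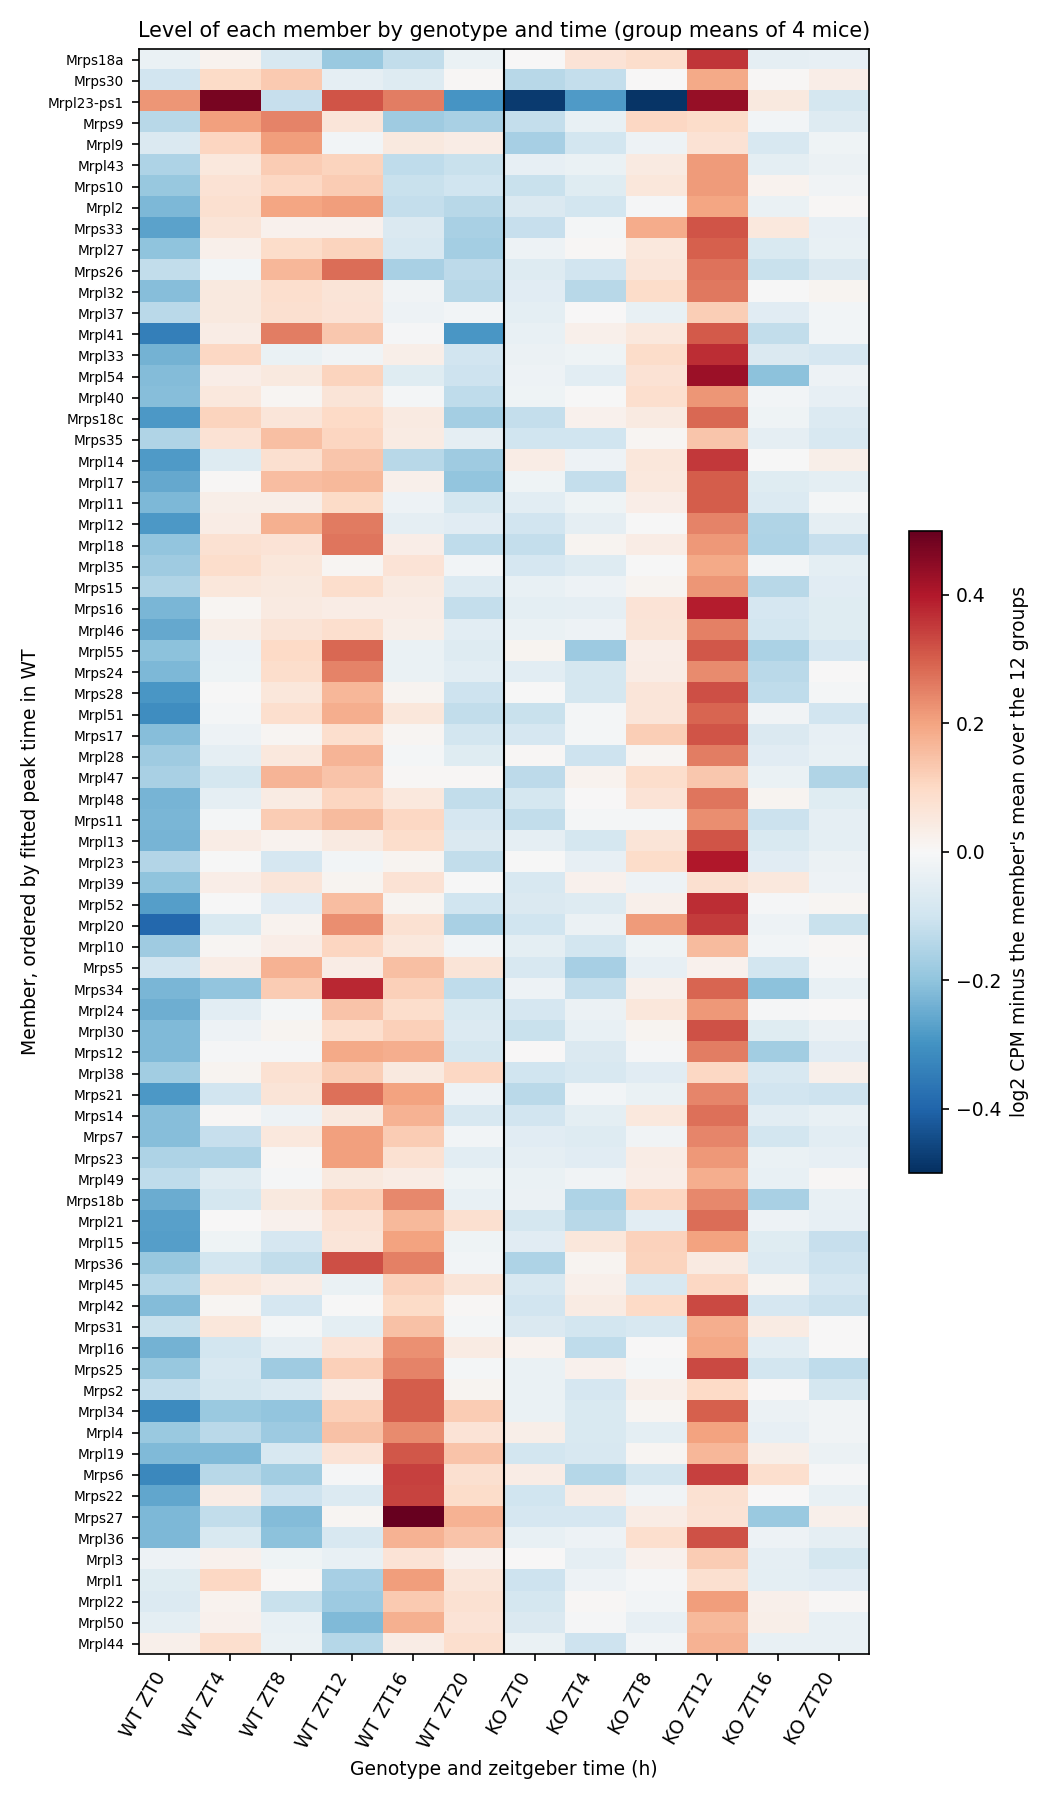
Heat map of the level of each of the 76 members (rows, ordered by the fitted peak time in WT) in the 12 groups of 4 mice (columns). Colour shows log2 CPM minus the member's mean over the groups. The WT ZT0 column is blue in most rows, 67 members having their lowest WT mean there, and the KO ZT12 column, which holds mouse 21, is red in most.

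Mrpl12 shows the common pattern. In the 4 WT mice of ZT0 it stood at 73.1, 85.3, 93.6 and 95.5 CPM, and in those of ZT12 at 122, 122, 130 and 135 CPM. The ranges did not overlap, and 1 WT mouse of ZT8, at 143 CPM, was higher still. The fitted wave had an amplitude of 0.22 ± 0.05 (SE; adjusted p = 0.000767 by edgeR) and a peak at ZT10.5. Mrps12, whose protein uS12m lines the decoding site of the small subunit, was later. It stood at 22.8, 26.8, 27.6 and 28.8 CPM at ZT0, at 32.5, 34.3, 37 and 37.3 CPM at ZT12 and at 33.2, 34.3, 35.8 and 36.8 CPM at ZT16. Again no mouse of ZT0 reached the lowest mouse of the 2 later groups. Its amplitude was 0.18 ± 0.05 (SE; adjusted p = 0.00603 by edgeR), with a peak at ZT12.6.

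The largest amplitudes in WT belonged to Mrps27 (0.35), Mrpl41 (0.30), Mrps34 (0.30), Mrpl34 (0.29), Mrpl19 (0.26) and Mrpl20 (0.26). Mrpl41 peaked at ZT9.7, Mrpl20 at ZT11.9 and Mrps34 at ZT12.3. Mrpl34, Mrpl19 and Mrps27 came later, at ZT15.6, ZT15.7 and ZT16.5. Within Mrpl41, whose protein mL41 is specific to mitochondria, the WT mice of ZT0 lay at 13.9 to 16 CPM and those of ZT8 at 20.2 to 25.2 CPM, without overlap. Mrps34, whose protein mS34 is specific to mitochondria, lay at 12.5 to 16.4 CPM at ZT0 and 18.2 to 26.6 CPM at ZT12, also apart. Mrpl34, of a very small basic protein of the large subunit, lay at 16.5 to 24.9 CPM at ZT0 and 26.3 to 35.3 CPM at ZT16, again apart. Among the 52, Mrps9, Mrps22, Mrps27 and Mrpl36 were the 4 that peaked outside ZT8 to ZT16, at ZT7.1, ZT16.1, ZT16.5 and ZT17.4.

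The length trend of the libraries moved with the same hours in WT. Its mean was 0.0876 in the WT mice of ZT0 and 0.0519 in those of ZT20, and -0.0188 to -0.00307 in the other 4 WT groups, so that short transcripts were read relatively less at the hours at which the family was low. With the trend of each library as a term in the model 35 of 76 members were called, beside 43.2% of all genes. The members' share then lay closer to that of all genes than without the term.

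**Figure D2:**
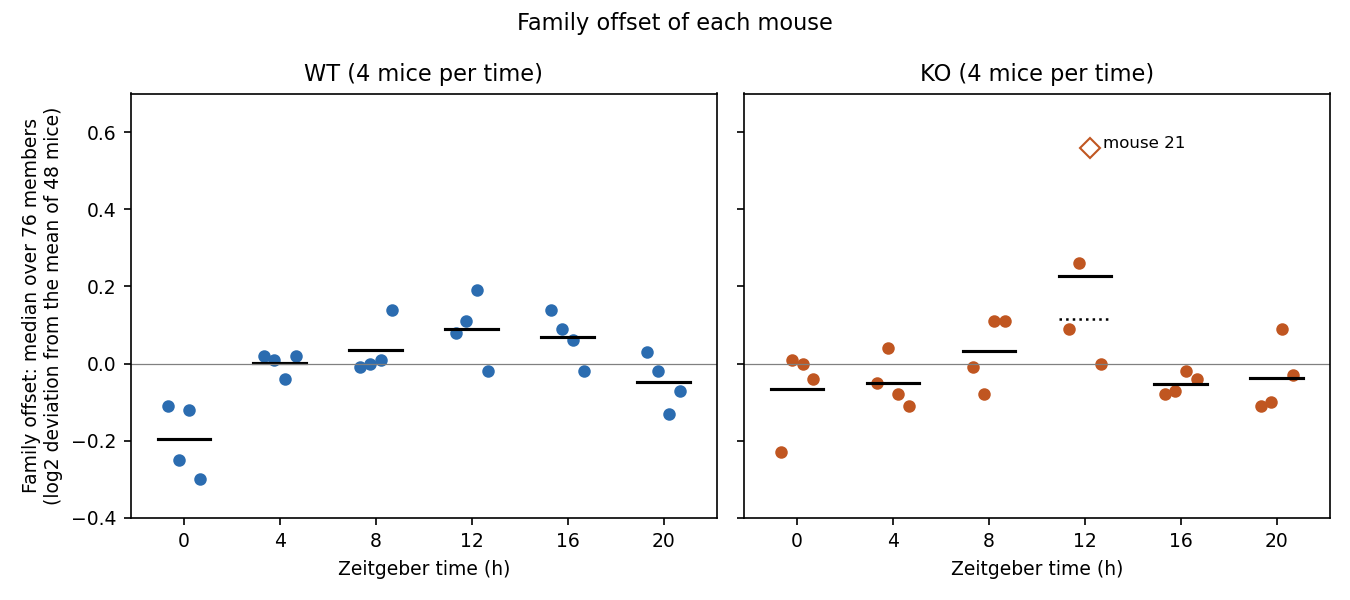
Family offset of each mouse, the median over the 76 members of the log2 deviation from the mean of all 48 mice, against zeitgeber time in h, in WT (left) and KO (right). Bars are group means and the dotted bar leaves out mouse 21 (open diamond, 0.56); the WT means run from -0.20 at ZT0 to 0.09 at ZT12.

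In KO liver ZT12 was the highest time and few members passed the test for a wave. ZT16, where 25 members were highest in WT, was highest for no member in KO and lowest for 22. The family offset, defined as the median log2 deviation of the members from their means over all mice, ran from -0.20 ± 0.09 (SD, n = 4) at ZT0 to 0.09 ± 0.09 at ZT12 in WT. In KO it ran from -0.07 ± 0.11 at ZT0 to 0.23 ± 0.24 at ZT12, or to 0.12 ± 0.13 (n = 3) without mouse 21. The 4 KO mice of ZT12 lay at 0.00, 0.09, 0.26 and 0.56, and the highest of them is mouse 21. All 76 fitted peaks fell between ZT8 and ZT16, and 71 did so without mouse 21. The highest KO group mean was at ZT12 in 74 of 76 members, and in 66 without mouse 21.

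A 24 h wave was called in 5 members in KO (Mrpl20, Mrps33, Mrpl42, Mrpl51 and Mrps17), while 0.984% of all genes passed. Mrpl20, whose bacterial relative acts early in assembly of the large subunit, had the lowest p, with an amplitude of 0.23 ± 0.05 (SE; adjusted p = 0.0336 by edgeR) and a peak at ZT10.4. Its KO mice of ZT12 stood at 39.7, 39.8, 44.6 and 61 CPM, and those of ZT0 at 28.9, 34.7, 36 and 36.1 CPM. The groups did not overlap, and the value of 61 is mouse 21. Without that mouse edgeR called no member (0.467% of all genes; 19 members had an unadjusted p under 0.05), the adjusted p of Mrpl20 was 0.0563, and the median amplitude fell from 0.12 to 0.07. Leaving out any 1 of the other mice gave 5 calls or fewer. The other 4 called members were alike in their KO mice. Mrpl51 stood at 42, 49.4, 50.2 and 50.4 CPM at ZT0 and at 53.3, 59.2, 62.6 and 78.1 CPM at ZT12, and Mrpl42 at 33.3 to 37.6 and 38.7 to 62.1 CPM. Mrps33 stood at 12 to 13.6 CPM at ZT0 and 14.9 to 21 CPM at ZT12, without overlap, and Mrps17 at 29 to 37.4 and 37.1 to 52.3 CPM, where the ends touch. Their adjusted p without mouse 21 lay between 0.0924 and 0.126.

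**Figure D3:**
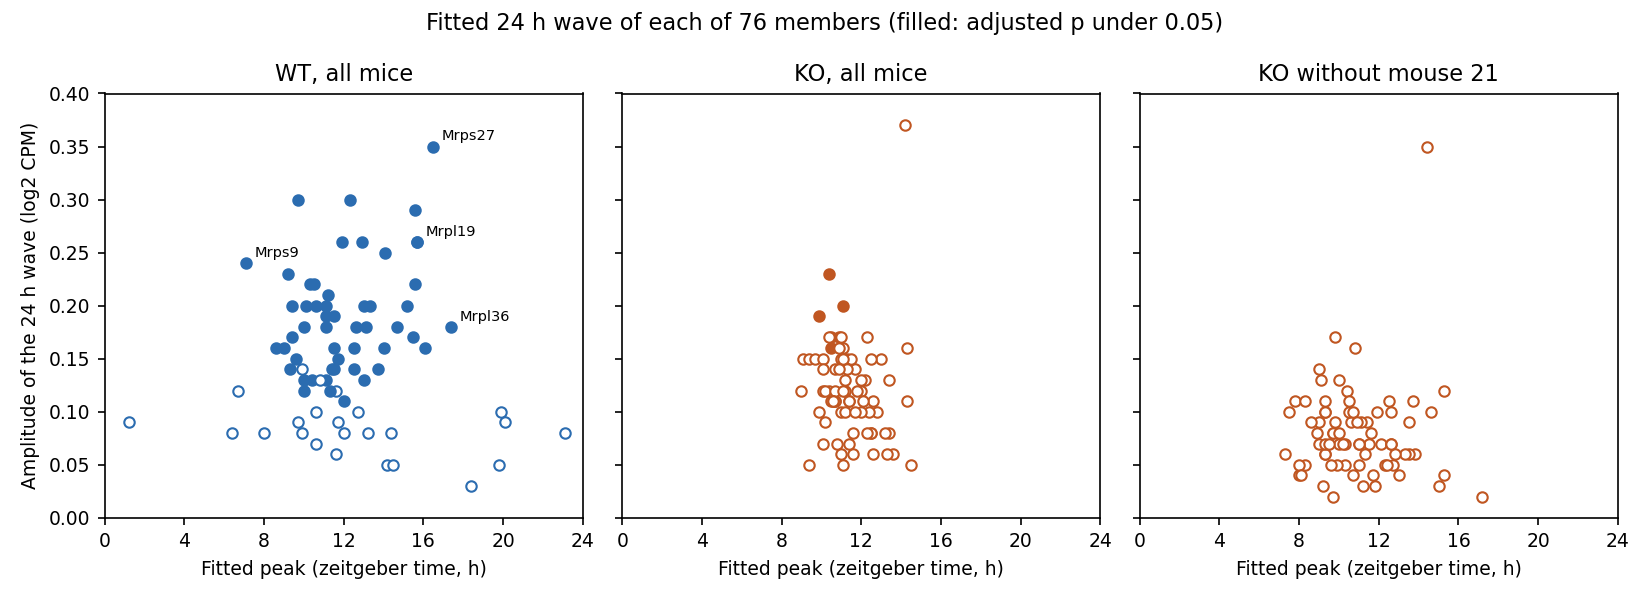
Amplitude on the log2 scale against fitted peak in zeitgeber hours for each of the 76 members in WT, in KO, and in KO without mouse 21. Filled points passed the test (52, 5 and 0 members); the isolated high point in both KO panels is the low-count pseudogene Mrpl23-ps1, which did not pass.

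The difference between the waves of the genotypes was tested directly. It was called in 9 of 76 members, while 22.8% of all genes passed, and in 13 without mouse 21 (25.5% of all genes), 6 of them in both. With all mice, amplitude was lower in KO in 51 of 76 members, and the 2 fitted peaks lay within 3 h of each other in 54. The median amplitude of the members was 0.15 in WT and 0.12 in KO, against 0.18 and 0.11 over all genes. Without mouse 21 the KO medians were 0.07 for the members and 0.10 over all genes. The 9 called members were Mrps27, Mrps9, Mrpl19, Mrpl36, Mrps36, Mrps30, Mrps18a, Mrpl44 and Mrpl22. Their WT peaks were at ZT16.5, ZT7.1, ZT15.7, ZT17.4, ZT14.1, ZT6.4, ZT1.2, ZT23.1 and ZT19.9, in that order, and their KO peaks lay between ZT9.0 and ZT13.4. Of the 8 of them with a promoter sequence 1, Mrpl36, held the E-box. For Mrps30, Mrps18a, Mrpl44 and Mrpl22 the WT wave itself did not pass.

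Mrps27 differed most. It encodes mS27, a protein of the small subunit of the RNA-binding PPR family that has no bacterial relative, and lies at chr13:100114741-100185516 (mm9). The WT mice of ZT16 stood at 45.5, 45.7, 46.9 and 50.8 CPM, and the highest of the other 44 mice of either genotype at 41.2 CPM. It was the only member in which 1 group lay above every other mouse. WT mice of ZT0 to ZT8 lay at 21.5 to 34 CPM, those of ZT12 at 26.1 to 33.8 CPM and those of ZT20 at 31.8 to 36.8 CPM. The KO mice of ZT16 stood at 23.8, 26.1, 28 and 31.7 CPM, all below every WT mouse of that time. KO minus WT at ZT16 was -0.78 ± 0.12 (log2 ± SE; adjusted p = 0.000129 by edgeR), and the rhythm difference had an adjusted p of 0.00286. The wave had an amplitude of 0.35 ± 0.06 in WT and 0.05 ± 0.06 in KO. Both calls also held whichever of the 48 mice was left out. In WT a 12 h term was called as well (amplitude 0.21 ± 0.05, adjusted p = 0.0247 by edgeR).

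Mrps9 was highest in WT at ZT4 and ZT8. Its protein, uS9m, reaches with its tail to the transfer RNA in the small subunit. At chr1:42908078-42962527 (mm9), it stood in WT at 24.6 to 27.5 CPM at ZT4 and 25.9 to 29.6 CPM at ZT8, and at 19.2 to 21.3 CPM at ZT16. The ranges of ZT4 and ZT8 lay above that of ZT16, while ZT0, at 19.9 to 21.2 CPM, lay within it. In KO the same hours gave 21.3 to 23.5, 22.8 to 27.1 and 21 to 24.3 CPM, which overlap. The rhythm difference had an adjusted p of 0.00479, with amplitudes of 0.24 ± 0.03 in WT and 0.11 ± 0.03 in KO (log2 ± SE), and of 0.00212 without mouse 21.

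Mrpl19, which encodes bL19m at the face between the subunits, and Mrpl36, which encodes the small zinc-binding protein bL36m, also peaked late in WT. Mrpl19 stood at 15.8, 17.4, 17.6 and 21.9 CPM in WT and at 13.6, 14.6, 15.1 and 16.6 CPM in KO at ZT16. One WT mouse lay within the KO range. Its rhythm difference had an adjusted p of 0.0134, and that of Mrpl36 of 0.02. Mrpl19 overlaps the gene AW146020, and the kit does not record the strand, so reads of the shared stretch cannot be told apart. Such overlap with another gene of at least 10 mean counts affects 22 of the 76 members, Mrps18a, Mrps25, Mrps27 and Mrps34 among them. The partner of Mrps27, 6430562O15Rik, had a mean of 14 counts.

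**Figure D4:**
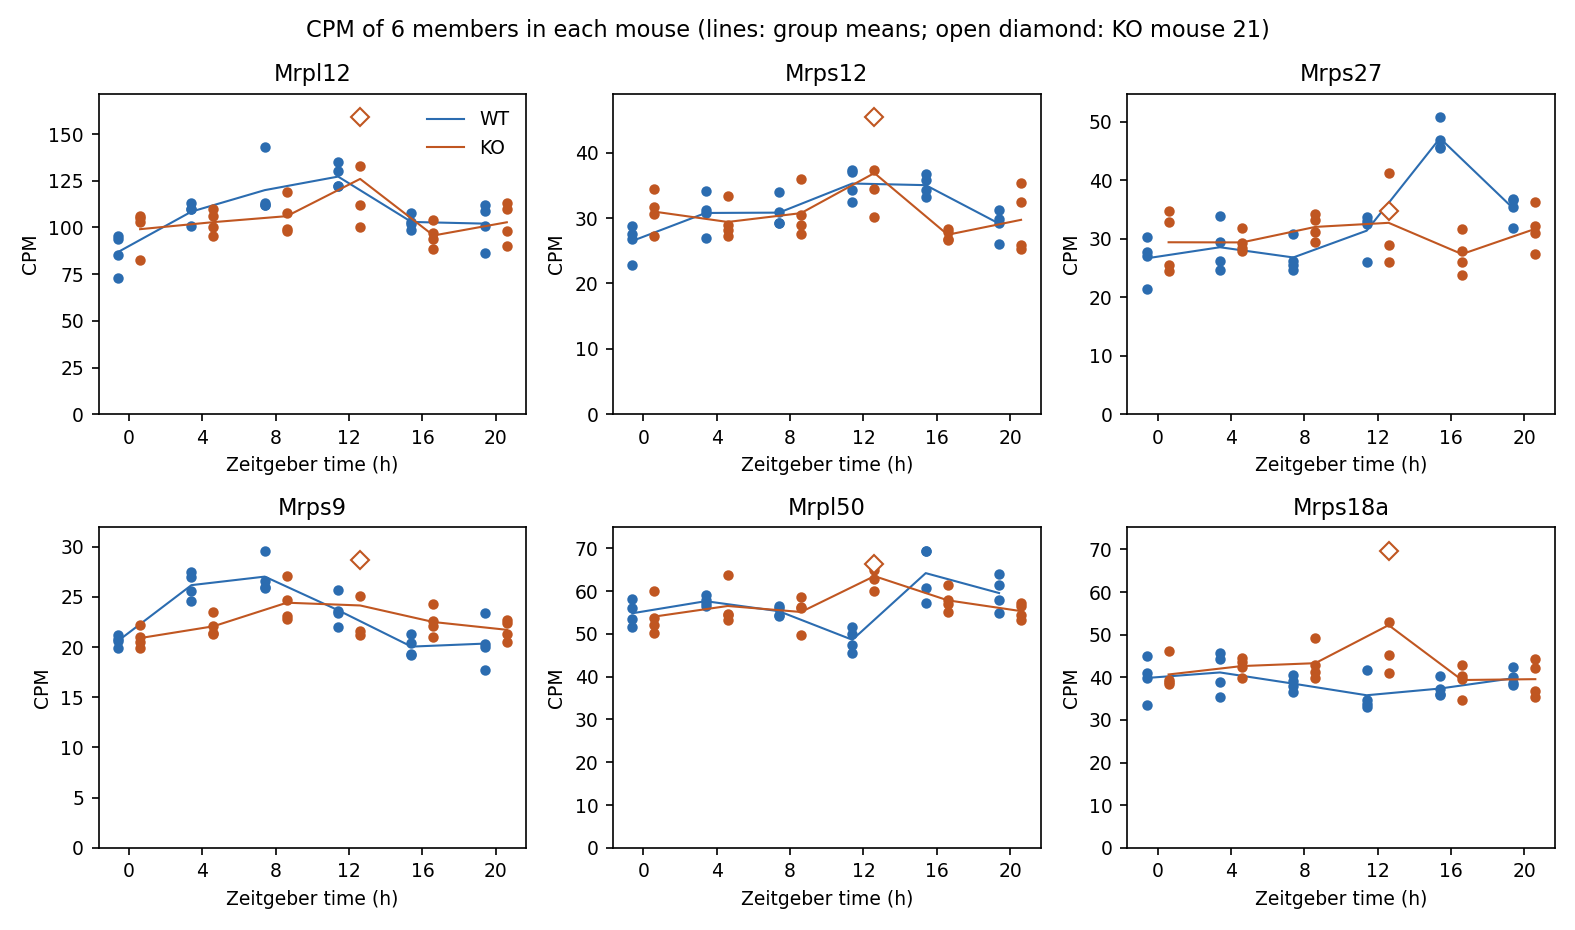
CPM of Mrpl12, Mrps12, Mrps27, Mrps9, Mrpl50 and Mrps18a in each of 48 mice against zeitgeber time in h, WT in blue and KO in orange, with lines through group means and KO mouse 21 as an open diamond. The 4 WT mice of ZT16 stand above all others in Mrps27, and the WT mice of ZT12 below the KO mice of ZT12 in Mrpl50.

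Averaged over the 6 times, the level of the family was nearly the same in both genotypes. The median KO minus WT difference of the members was 0.01 (log2; 0.00 over all genes), with 42 members positive and 34 negative. Called differences numbered 3, of 76, while 8.86% of all genes passed, 4.94% higher and 3.92% lower in KO. Scaling by total counts gave 0 higher and 2 lower members, the share of all genes in that fit not being given here. Mrps18a was higher in KO by 0.14 ± 0.04 (log2 ± SE; adjusted p = 0.0353 by edgeR). Mrps5, which encodes uS5m beside the messenger RNA entry of the small subunit, was lower at -0.12 ± 0.04 (adjusted p = 0.0252), and Mrpl9 lower at -0.10 ± 0.03 (adjusted p = 0.0383). Mrps5 had a mean of 42.1 ± 3.76 CPM in WT and 38.7 ± 3.61 CPM in KO (SD, n = 24 each), so the genotypes overlapped widely. Without mouse 21 Mrps5 and Mrpl9 alone were called (8.37% of all genes), and the adjusted p of Mrps18a was 0.0527. Mrps5 was called whichever of the 48 mice was left out, Mrpl9 in 35 of these 48 fits (adjusted p up to 0.0645) and Mrps18a in 38 (up to 0.0584). Mrpl12 differed by -0.03 ± 0.04 and Mrps12 by -0.02 ± 0.04 (log2 ± SE), with adjusted p of 0.736 and 0.846 by edgeR.

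The summed level of each subunit gives the same picture. The large subunit summed to 1347 to 1845 CPM in the 24 WT mice (median 1651) and to 1395 to 2393 CPM in KO (median 1635), where the upper end is mouse 21 and 1971 CPM without it. The small subunit summed to 565.6 to 817.9 CPM in WT (median 703.9) and 597.2 to 991 CPM in KO (median 685.1). Without mouse 21 the small subunit reached 839.6 CPM in KO. In both subunits the medians of the genotypes lay inside the range of the other.

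The KO minus WT difference of the median member was not the same at every time. The interaction with time was called in 23.7% of the members, near the 20.7% of all genes. At ZT0 the median member was higher in KO by 0.15 on the log2 scale, with 69 of 76 positive, but edgeR and DESeq2 called none (1.68% of all genes by edgeR), 17 having an unadjusted p under 0.05. The mean length trend at ZT0 was 0.0876 in the WT mice and 0.0214 in the KO mice, and its part in this difference was not tested. Without KO mouse 41 of ZT0 edgeR called 2 members, the share of all genes in that fit not being given here. Without the 4 libraries farthest from their groups, 2 of them KO mice of ZT0, the median was 0.07 and 3 members had an unadjusted p under 0.05. At ZT4 the median was -0.05 and at ZT8 0.00, with no member called by edgeR (3.79% and 7.87% of all genes) and 1 at each time by DESeq2; 7 and 4 members had an unadjusted p under 0.05 in edgeR. Without mouse 21 Mrps9 was called at ZT4 (4.83% of all genes) and Mrpl36 and Mrpl9 at ZT8 (9.61%). At ZT20 the median was 0.01, neither edgeR nor DESeq2 called a member (1.05% of all genes by edgeR), and 1 had an unadjusted p under 0.05. At ZT0 all 26 small-subunit members were positive.

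At ZT12 10 members were higher in KO and none was lower, while of all genes 11.7% passed and 6.59% were higher. The members were Mrpl1, Mrpl22, Mrpl33, Mrpl36, Mrpl42, Mrpl44, Mrpl50, Mrpl54, Mrps16 and Mrps18a, 9 of them of the large subunit. The median over all members was 0.14, and -0.05 without the 4 libraries farthest from their groups, which include 2 of these KO mice. It was 0.02 without mouse 21, when 3 were higher (Mrpl22, Mrpl50 and Mrps18a; 4.19% of all genes) and Mrps36 was lower (3.49%). The 8 hepatocyte markers had a median of 0.21, and of 0.07 without mouse 21, with 1 called higher and 1 lower. The 7 markers of sinusoidal endothelium had a median of -0.24 with 2 called lower, and of -0.22 with 1 without mouse 21. Their part in the result was not tested. Leaving out KO mouse 24 of ZT12 gave 21 called members. The share of all genes in that fit is not given here, so this count is not set against it.

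Mrpl22, Mrpl50 and Mrps18a held without mouse 21. Mrpl22 encodes uL22m, a protein of the exit tunnel of the large subunit. It stood at 17.9, 19.8, 20.2 and 20.2 CPM in the WT mice of ZT12 and at 22.3, 23.6, 25.1 and 31.4 CPM in the KO mice, without overlap, a difference of 0.39 ± 0.08 (log2 ± SE; adjusted p = 0.000978 by edgeR). Mrpl50, at chr4:49525468-49533965 (mm9), encodes mL50, a mitochondrion-specific protein of the large subunit. It stood at 45.4, 47.3, 50 and 51.7 CPM in the WT mice of ZT12 and at 59.9, 62.9, 64.8 and 66.3 CPM in the KO mice. The groups did not overlap, and the difference was 0.39 ± 0.07 (log2 ± SE; adjusted p = 0.000121 by edgeR), or 0.35 (adjusted p = 0.000924) without mouse 21. The WT mice of ZT12 were the lowest of the WT groups in this gene, where most members were high. Mrps18a, at chr17:46247935-46265859 (mm9), stood at 33.1, 33.7, 34.7 and 41.7 CPM in WT and at 41, 45.2, 53.1 and 69.7 CPM in KO. Here 1 mouse of each group overlapped. The difference was 0.55 ± 0.11 (log2 ± SE; adjusted p = 0.000868 by edgeR), or 0.37 (adjusted p = 0.016) without mouse 21, which holds the 69.7.

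At ZT16 the direction was the other way, and mouse 21 is not among these libraries. Of 76 members 6 were lower in KO and none higher, while of all genes 5.37% passed and 2.77% were lower. The median was -0.11, with 65 members negative. Besides Mrps27 the called members were Mrps22 (-0.33 ± 0.08), Mrps12 (-0.35 ± 0.10), Mrps25 (-0.35 ± 0.10), Mrps2 (-0.30 ± 0.09) and Mrpl1 (-0.26 ± 0.08; log2 ± SE), of which 4 are of the small subunit and Mrpl1 of the large. The median was -0.20 over the small-subunit members and -0.10 over the large. Mrps22, which encodes the mitochondrion-specific mS22, stood at 28.4, 30.4, 31.6 and 35.6 CPM in WT and at 23.6, 23.7, 25 and 27.8 CPM in KO, without overlap (adjusted p = 0.00993 by edgeR). Mrps12 stood at 26.7, 26.8, 27.9 and 28.4 CPM in the KO mice, again below the 4 WT mice given above. Mrps25 stood at 14.4, 15, 15.9 and 16.2 CPM in WT and at 11.3, 12.1, 12.3 and 12.6 CPM in KO, and Mrps2 at 51, 55, 57.4 and 63.8 CPM in WT and at 43.6, 44.5, 46.1 and 50.1 CPM in KO. Neither overlapped. For Mrpl1 the lowest WT mouse, at 29.8 CPM, lay below the highest KO mouse, at 30.4 CPM. Mrpl1 was the 1 member called in both directions, higher in KO at ZT12 and lower at ZT16. Its call at ZT12 was lost without mouse 21 (0.19, adjusted p = 0.16 by edgeR), and no member was then called in both directions. Without WT mouse 29 of ZT16 1 member, Mrps27, was called (share of all genes not given here). Without KO mouse 21 of ZT12 9 were (3.49% of all genes lower), including these 6.

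**Figure D5:**
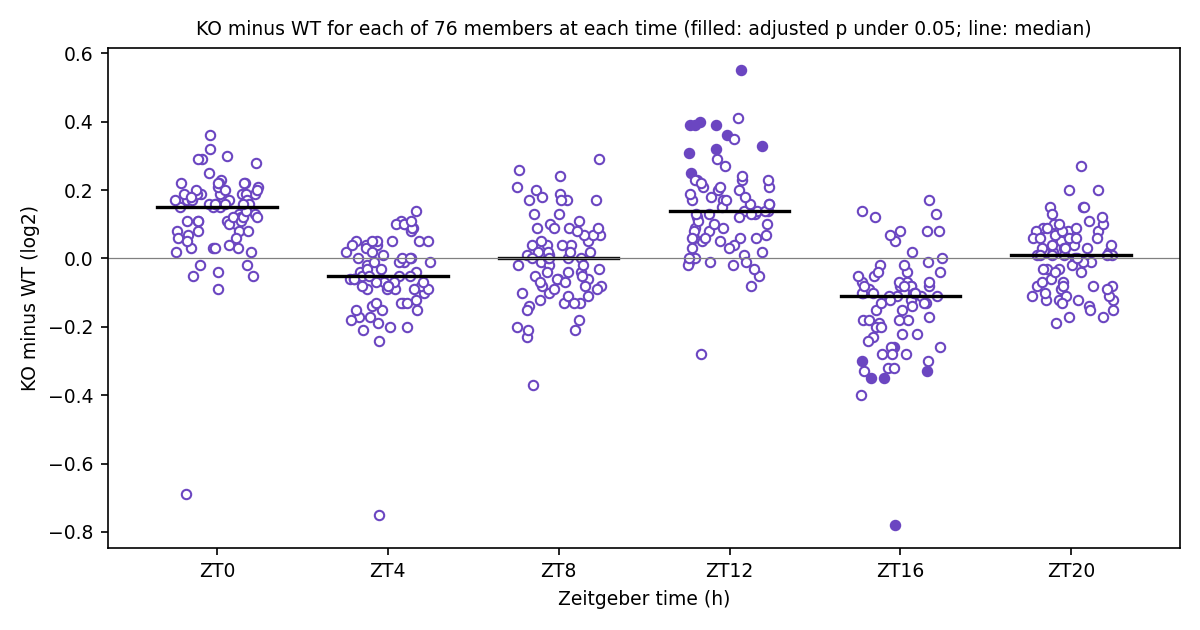
KO minus WT on the log2 scale for each of the 76 members at each of the 6 times, with the median as a line and called members filled. The medians run from 0.15 at ZT0 to -0.11 at ZT16, and the lowest filled point at ZT16 is Mrps27 at -0.78.

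Whether the KO minus WT difference varied with time was tested over all 6 times at once. It did in 18 of 76 members, while 20.7% of all genes passed, and in 17 without mouse 21 (22.2% of all genes), 13 of them in both. Without the 4 libraries farthest from their groups it did in 7 (19.8% of all genes). The 4 smallest p values belonged to Mrps27 (adjusted p = 0.000248), Mrpl50 (0.000561), Mrpl36 (0.00518) and Mrps22 (0.00541; edgeR). A 12 h component was called in 4 members in WT (Mrps22, Mrpl1, Mrpl50 and Mrps27; 5.48% of all genes), in 8 without mouse 21 (9.06%) and in none in KO by edgeR, where 0% of all genes passed and 21 members had an unadjusted p under 0.05.

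Other genes of mitochondrial translation were read from the same fits. Of 6 ribosome subunits whose symbols lack the family's name 4 were rhythmic in WT and none in KO, beside the 48.1% and 0.984% of all genes given above. The same shares apply to the lists that follow. Among them Ptcd3, the gene of the small-subunit protein mS39 and, as Mrps27, of the PPR family, peaked in WT at ZT16 with an amplitude of 0.22 and differed at ZT16 by -0.43 (log2; adjusted p = 0.00292 by edgeR). Its rhythm difference had an adjusted p of 0.00247. Of 15 translation factors 7 were rhythmic in WT and none in KO, and Gfm1, the gene of the main elongation factor of translocation, was lower in KO on average at -0.14 ± 0.04 (log2 ± SE; adjusted p = 0.0419 by edgeR), though not without mouse 21. Of 21 assembly factors and RNA-modifying enzymes 13 were rhythmic in WT, and of 17 mitochondrial transfer RNA synthetases 9, with none in KO in either list. Ears2, the synthetase for glutamate, was higher in KO by 0.17 (log2; adjusted p = 0.0203) and had a WT amplitude of 0.36. Of 12 genes of mitochondrial DNA and RNA upkeep 7 were rhythmic in WT, and Peo1, the gene of the helicase Twinkle, was higher in KO by 0.18 (log2; adjusted p = 0.016). Peo1 overlaps Mrpl43 in the table. Of 10 nuclear regulators of mitochondrial genes 7 were rhythmic in WT, and Ppargc1b was lower in KO at -0.47 (log2; adjusted p = 0.00164). The messages that the ribosome translates, those of the mitochondrial genome, are not analysed here.

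The 2 families most like it are given side by side. Of 80 cytosolic ribosomal protein genes 44 were higher in KO on average and none lower, with a median of 0.15 (log2; 37 and 0.11 without mouse 21), and of 76 nuclear subunits of oxidative phosphorylation 7 were lower and none higher, with a median of -0.05 (15 and -0.06). In WT 43 and 46 of them were rhythmic (71 and 67 without mouse 21), with a median amplitude of 0.15 in both. In KO 18 and 0 were, and the 18 were 0 without mouse 21. Of the called WT waves 42 of 43 and 45 of 46 peaked between ZT8 and ZT16, beside 48 of 52 in the mitochondrial ribosomal family. Without mouse 21 these were 70 of 71 and 66 of 67, beside 54 of 59. Interaction with time was called in 4 cytosolic ribosomal and 2 oxidative phosphorylation genes (20.7% of all genes), and in 12 and 3 without mouse 21 (22.2%). At ZT12 their medians were 0.32 and 0.09, with 31 and 1 higher in KO and none lower (6.59% of all genes higher). Without mouse 21 the medians were 0.10 and -0.09, with 1 and 0 higher (4.19%) and 0 and 2 lower (3.49%). At ZT16 the medians were 0.01 and -0.20 with none called, and 9 of the second were lower without mouse 21 (3.49%). Of all genes 4.94% were higher in KO on average and 3.92% lower (4.51% and 3.85% without mouse 21). The shares rhythmic in WT and in KO were 48.1% and 0.984% (51.5% and 0.467% without mouse 21). No test between the families was made.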

How the data were processed

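Poly-A RNA from 48 livers was sequenced, 2 libraries to a lane, after 13 PCR cycles and with an unstranded kit, per the labels' protocols. CASAVA and STAR 2.4.0f1 on mm9 are named in the submitters' processing notes; the counting tool, gene models and handling of multiply matching reads are not given in the sources used here. The deposited values are whole-number read counts per gene. Library totals vary by 0.302% (SD relative to the mean), so depth had been equalised by a step not given in these sources, and the number of reads sequenced is unknown.

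The counts were analysed in edgeR 4.0.16 (R 4.3.3). filterByExpr (minimum count 10) kept 14836 genes holding 99.975% of counts, and TMM factors were 0.898 to 1.14. The quasi-likelihood fit of the 12 groups had 36 residual degrees of freedom and served the KO minus WT contrasts and their interaction with time. The fit of 24 h cosine and sine terms in each genotype had 42 and served the rhythms, with 12 h terms added in another fit. Benjamini-Hochberg adjustment ran over all genes within each comparison, with calls at an adjusted p under 0.05. Errors of fold changes and amplitudes were taken from F statistics, the latter approximately. The mice are separate animals. The labels name no molecular identifiers, so copies made by PCR cannot be told from independent molecules. Lengths are unions of exons in GENCODE M21, and promoters are from RefSeq. The fits were tested on simulated counts.

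The members and gene lists were chosen with earlier results of these data known. Members named by rule are Mrpl12 and Mrps12, the largest called changes on average and at each time, the largest called amplitudes in each genotype, the called members with the smallest p in the interaction and in the difference of the waves, and the 3 highest and 3 lowest levels per kb. Others named were chosen after their values were seen. Alternatives were DESeq2 1.42.0, RLE and total-count scaling, no filter, body weight or length trend in the model, cage as a random block (limma 3.58.1), each cage set alone, and leaving out each mouse; leaving out the 4 farthest libraries was chosen after seeing the data.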

Additional observations from a re-analysis of the deposited data

Results flagged for a closer look

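Of 312 groups of 4 mice tested (23 named members and the family measures), 21 held a mouse far from the other three by Dixon's criterion, or 6.73%, where chance gives about 5%. KO mouse 21 of ZT12 was in none of them. The family offset was -0.04 in WT mouse 4 of ZT4 and 0.14 in WT mouse 16 of ZT8. In the WT mice, Mrpl12 stood at 143 CPM and Mrpl51 at 60.8 CPM in mouse 16 of ZT8, Mrpl36 at 19.2 CPM in mouse 11 of ZT8, and Mrpl19 at 11.1 CPM in mouse 4 of ZT4. Mrpl20 stood at 45.1 CPM in mouse 19 and Mrps27 at 26.1 CPM in mouse 23 of ZT12, Mrps25 at 11.6 CPM in mouse 36 of ZT20 and Mrps5 at 39.4 CPM in mouse 45 of ZT0. In the KO mice, Mrpl12 stood at 82.4 CPM and Mrpl51 at 42 CPM in mouse 41 of ZT0, and Mrps18a at 46.1 CPM in mouse 43 of ZT0. Mrpl34 stood at 29.3 CPM in mouse 1 and Mrpl50 at 63.7 CPM in mouse 5 of ZT4. At ZT8 Mrpl36 stood at 21.8 CPM and Mrps25 at 11.5 CPM in mouse 10, and Mrpl9 at 58.6 CPM and Mrps5 at 44.3 CPM in mouse 15. At ZT16 Mrpl27 stood at 45.1 CPM in mouse 25 and Mrps34 at 13 CPM in mouse 26.

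The difference between the genotypes was itself tested and called in 9 members for the 24 h wave (22.8% of all genes) and in 18 for the interaction with time (20.7% of all genes; edgeR). Among members named by rule, the adjusted p of the wave difference was 0.00286 for Mrps27, 0.00479 for Mrps9, 0.0134 for Mrpl19, 0.02 for Mrpl36 and 0.0399 for Mrps18a. That of the interaction was 0.000248 for Mrps27, 0.000561 for Mrpl50, 0.00518 for Mrpl36 and 0.00541 for Mrps22. It was 0.0191 for Mrps25, 0.0289 for Mrpl42, 0.0341 for Mrpl19, 0.0351 for Mrps9 and 0.0495 for Mrps18a. For Mrps18a neither was called without mouse 21 (0.0949 and 0.228).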

How the results depend on the processing

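Among the 28 results of named members that were followed, the KO minus WT differences kept their sign under the alternatives run. The rest are amplitudes and F statistics, which cannot be negative and so have no sign to lose. Other differences of named members did not all keep their sign: at ZT12 Mrpl20 went from 0.12 to -0.05 (log2) without mouse 21. Medians over the 76 members changed sign as well. Without the 4 libraries farthest from their groups that of ZT12 went from 0.14 to -0.05 and that averaged over times from 0.01 to -0.03. Those 4 were KO mice 43 and 44 of ZT0 and 20 and 21 of ZT12, chosen after seeing the data. In cage set B the median went from 0.02 to -0.04 without mouse 21. The rhythm in WT was called in 46 to 59 members over the 48 fits that left out 1 mouse. Without any filter on low counts the numbers of members called were 1 averaged over times, 2 at ZT16, 8 for the interaction, 0 for the KO rhythm and 4 for the rhythm difference. With the length trend of each library in the model they were 5 averaged over times, 1 at ZT4, 2 at ZT8, 6 at ZT12, 0 for the KO rhythm and 17 for the rhythm difference. Without those 4 libraries they were 2 at ZT4 (6.65% of all genes), 2 at ZT8 (10.8%) and 3 at ZT12 (5.52%). In the same fit they were 7 for the interaction (19.8%), 0 for the KO rhythm (1.02%) and 14 for the rhythm difference (24.8%). Scaling by total counts gave 1 at ZT8 and 16 for the rhythm difference, and RLE scaling gave 3 for the KO rhythm. DESeq2 gave 1 at ZT4 and 1 at ZT8, and body weight in the model 3 at ZT16. Where no share of all genes stands beside a count, that share is not given here. Such counts do not tell a change in the family from a change in calls over all genes. Cage set C alone gave 1 (5.47% of all genes). Any difference among the 6 times was called in 8 members in KO (0.91% of all genes), and in 0 without mouse 21 (0.0801%). The cause of these changes was not tested.

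Leaving out 1 mouse gave 1 (WT mouse 4 of ZT4) to 5 (KO mouse 24 of ZT12) members averaged over times and 9 (KO mouse 25 of ZT16) to 25 (KO mouse 24) for the interaction. It gave 0 to 5 for the KO rhythm, 6 to 13 for the rhythm difference, 0 to 2 at ZT0, 0 to 1 at ZT4, 0 to 2 at ZT8, 4 to 21 at ZT12 and 1 to 9 at ZT16. Shares of all genes are given only for the fit without mouse 21. These ranges therefore do not tell a change in the family from a change in calls over all genes. The 12 h component in WT was refitted without mouse 21 alone, with 8 members. The 26 called results of named members were kept in 1096 of 1248 such fits and lost in 152, all from 7 of them. Mouse numbers pair no groups. The 11 cages that held both genotypes tie WT and KO mice; cage as a random block gave 3 members averaged over times, and no other paired fit was made. The libraries were brought to 1 depth before deposit, so differences in sequencing depth cannot be examined. Each wave rests on 6 times within 1 cycle, and time cannot be told apart from cage set.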

Other observations

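Members with bacterial relatives and members specific to mitochondria had waves of like timing in WT. A 24 h wave was called by edgeR in 35 of 46 of the first and 16 of 28 of the second, beside 48.1% of all genes, with median amplitudes of 0.17 and 0.14 on the log2 scale and a mean fitted peak at ZT12.0 in both. The difference between the classes was not tested.

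Some genes that act on the mitochondrial ribosome from outside it differed between the genotypes at single times. Those named here were chosen after their values were seen. At ZT12 2 of 21 assembly factors and RNA-modifying enzymes were called higher in KO and 1 lower, beside 6.59% and 5.12% of all genes. Of 10 nuclear regulators 1 was higher and 2 lower at that time. At ZT16 2 of 15 translation factors were lower, beside 2.77% of all genes, and 0 of the 21 were called. At ZT12 Mterfd2, whose protein takes part in ribosome assembly, was higher in KO by 0.45 (log2; adjusted p = 0.00191 by edgeR), or 0.36 (0.0181) without KO mouse 21. Ngrn was higher by 0.33 (adjusted p = 0.00426), a call lost without that mouse (0.21, adjusted p = 0.065). Mrm1, which methylates the ribosomal RNA, was lower at -0.46 (adjusted p = 0.0246), or -0.54 (0.0189) without mouse 21. Esrra, the gene of a nuclear receptor that acts on many mitochondrial genes, was lower at -0.47 (adjusted p = 0.00969), or -0.56 (0.00497) without mouse 21, and its wave had an amplitude of 0.34 in WT and 0.03 in KO (rhythm difference adjusted p = 0.00511). The release factor gene Mtrf1l was lower at ZT16, at -0.39 (adjusted p = 0.025).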
